A study of Mus musculus with 12 samples.

Results

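The genes described here are the nuclear genes for the respiratory chain of the mitochondrion, complex by complex, in the epididymal fat of mice given epinephrine. They were chosen by symbol alone: names beginning Nduf followed by a, b, c, s or v, Sdha to Sdhd, and names beginning Uqcr, Cox4 to Cox8 or Atp5. Of 27179 genes counted, 101 matched. The 3 pseudogene symbols (Atp5c1-ps, Uqcrh-ps1 and Ndufs5-ps) and, by the same definition, Cox7a1 and Cox8b were left out. That gives 96 genes: 43 for complex I, 8 for complex I assembly (Ndufaf1 to Ndufaf8), 4 for complex II, 8 for complex III, 16 for complex IV and 17 for complex V. They lie on 19 chromosomes. RNA was sequenced from the epididymal white fat of 12 male C57BL/6J mice fed chow, with no genetic alteration named in the labels. The 6 vehicle mice received saline and the other 6 epinephrine at 0.5 mg/kg, each by injection into the peritoneum, and tissue was taken 1 h later. The listed ages run from 12 to 17 weeks for vehicle and from 18 to 23 weeks for epinephrine, rising by 1 week from each mouse to the next, so that no listed age is shared by both groups. How the ages were recorded is not given in the sources used here, and such even steps leave it uncertain whether they are the true ages, so values from a fit with listed age rest on the ages as listed.

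The respiratory chain sits in the inner membrane of the mitochondrion. Complex I takes electrons from NADH and complex II from succinate, and both pass them to ubiquinone. Complex III hands them through cytochrome c to complex IV, which reduces oxygen. The protons pumped by complexes I, III and IV drive complex V, the ATP synthase. All but complex II also hold subunits made inside the mitochondrion from its own genome, so the nuclear genes described here supply only a part of those complexes. Epinephrine acts on the beta-adrenergic receptors of fat cells, raises cyclic AMP and sets off lipolysis. Sustained beta-adrenergic stimulation of white fat is known for inducing mitochondrial genes through the coactivator PGC-1alpha, the product of Ppargc1a.

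Each library held between 24821601 and 34405433 counts, and the 96 genes together took between 0.858% and 1.13% of them. Levels are given as CPM, counts scaled by library size and TMM factor to a common total. The 12 adipocyte markers took 1.63% to 4.81% of counts. Markers of the neighbouring epididymis ranged from 0.000884% to 4.05% of counts. Gpx5, which the epididymis secretes, took more than 0.5% of counts in vehicle 2, epinephrine 1 and epinephrine 2, called the 3 Gpx5-rich libraries in what follows. In bulk tissue, fewer cells of a type and less RNA per cell cannot be told apart. Brown and beige fat markers summed to 16.8 to 54.2 CPM over the 12 libraries, of which Pank1 alone gave 5.75 to 43.1 CPM and Ppargc1a 5.72 to 23.9 CPM. Ucp1, which uncouples respiration in brown fat, had too few counts to be tested, at 0 to 0.0662 CPM in vehicle mice and 0.112 to 0.420 CPM after epinephrine, without overlap. Dio2, an enzyme that activates thyroid hormone, stood at 0.0729 to 1.46 CPM and 1.19 to 3.49 CPM (log2 fold change 2.31, SE 0.647, adjusted p = 0.0592), and Cidea reached at most 2.73 CPM. Of the 8 listed markers, 5 were tested in edgeR and 0 had an adjusted p under 0.05, against 6.23% of all genes. The log2 fold changes of those 5 ran from -0.17 to 2.31, with a median of 0.22.

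Promoters were read for the letters bound by known regulators of these genes and by CREB, the factor that cyclic AMP signalling activates. The RefSeq promoter table (build GRCm38.p6, 300 bases per gene, from 250 before the start site to 50 after it) held 76 of the 96 genes and 27025 genes in all. NRF1's GCGCATGCG was present, on either strand, in 10 of the 76 (13.2%, against 1.95% of all genes). YY1's AAGATGGC was in 11 (14.5% against 3.19%), GABPA's CCGGAAGT in 5 (6.58% against 4.31%) and the ERR-alpha letters TCAAGGTCA in 2 (2.63% against 0.466%). The cyclic AMP response element TGACGTCA, which reads the same on both strands, was in 4 (5.26% against 2.03%). NRF1's letters overlap their own reverse complement by all but 1 base, so most of the 10 promoters hold both. In all, 30 of the 76 held at least 1 of the 5 motifs. A match is a description of the letters and shows no binding.

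Stretches around these motifs are printed 5′ to 3′ on the gene's strand with the motif in capitals and kept to 30 bases or fewer where they touch an exon annotated in GENCODE vM21. In Ndufa10, Ndufa11, Uqcrfs1 and Atp5j the motif itself lies in such an exon. All 4 cyclic AMP response elements are given because they are the letters most directly tied to the hormone's known pathway. They lie at chr1:92473807-92473836, minus strand for Ndufa10, at chr17:56717593-56717622, plus strand for Ndufa11, at chr6:39592511-39592564, plus strand for Ndufb2 and at chr13:30545327-30545356, minus strand for Uqcrfs1. One example of each of the other motifs follows, from Uqcrh (GABPA, chr4:116075071-116075092, minus strand), Cox6a1 (NRF1, chr5:115349102-115349130, minus strand), Atp5j (YY1, chr16:84835046-84835075, minus strand) and Atp5g3 (ERR-alpha, chr2:73911330-73911418, minus strand). In Uqcrh and Atp5g3 the motif is on the opposite strand and is shown as its reverse complement.
Ndufa10: acactcagtggTGACGTCAtggcagcgcgc
Ndufa11: tttacctttccTGACGTCAcgggcgtctct
Ndufb2: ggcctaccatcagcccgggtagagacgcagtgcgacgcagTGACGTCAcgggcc
Uqcrfs1: cggcgtcgcgcTGACGTCAcaaaccctgcg
Uqcrh: gagtatgccgcACTTCCGGcca
Cox6a1: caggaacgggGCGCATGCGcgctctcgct
Atp5j: aaagtgtaggaAAGATGGCggagtcttagc
Atp5g3: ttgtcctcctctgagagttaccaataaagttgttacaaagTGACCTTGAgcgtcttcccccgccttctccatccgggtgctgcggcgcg
The test of epinephrine against vehicle, described next, was passed by 0 of the 90 genes tested here and by 6.23% of all genes. The 4 genes with a cyclic AMP response element thus did not stand apart from the other members in it. Their log2 fold changes were 0.085 (SE 0.120, adjusted p = 0.849) for Ndufa10, 0.13 (SE 0.0909, adjusted p = 0.572) for Ndufa11, 0.053 (SE 0.0902, adjusted p = 0.885) for Ndufb2 and 0.067 (SE 0.132, adjusted p = 0.903) for Uqcrfs1 (edgeR). Ndufa10, Ndufa11 and Ndufb2 are supernumerary subunits of complex I, and Uqcrfs1 is the Rieske iron-sulfur protein of complex III.

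One hour after epinephrine, no nuclear respiratory chain gene was called higher or lower. Of the 96 genes, 90 passed the filter on low counts, and 0 of the 90 had an adjusted p under 0.05 in edgeR's quasi-likelihood test, with Benjamini-Hochberg adjustment over all genes tested. Over all 16175 genes tested, 6.23% passed that threshold, 428 higher and 579 lower (360 and 1448 with library size in place of TMM scaling). At an unadjusted p under 0.05 there were 4 of the 90, Atp5mpl, Ndufa7, Uqcrh and Atp5md, against 17.2% of all genes. In 0 of the 90 did the vehicle and epinephrine libraries not overlap, against 4.79% of all genes. The fold changes were small and closely bounded. They ran from -0.32 on the log2 scale for Ndufb4c to 0.22 for Ndufa11b, with a median standard error of 0.109 against 0.177 over all genes. The 95% confidence interval lay within 0.5 of 0 for 81 of the 90 genes and within 1 for all 90; over all genes tested, 6970 and 12144 met those bounds. Fold changes above 0 were found for 68 genes and below 0 for 22, with a median of 0.058, whereas all genes divided evenly (8061 above and 8114 below). The signs depended on the scaling: with library size alone in place of TMM, 26 lay above 0 and 64 below, with a median of -0.048. The median of all genes moved as well, from -0.00059 to -0.11. With either scaling, the median of the respiratory chain genes lay above that of all genes. The plot of fold changes by complex shows the intervals.

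**Figure D1:**
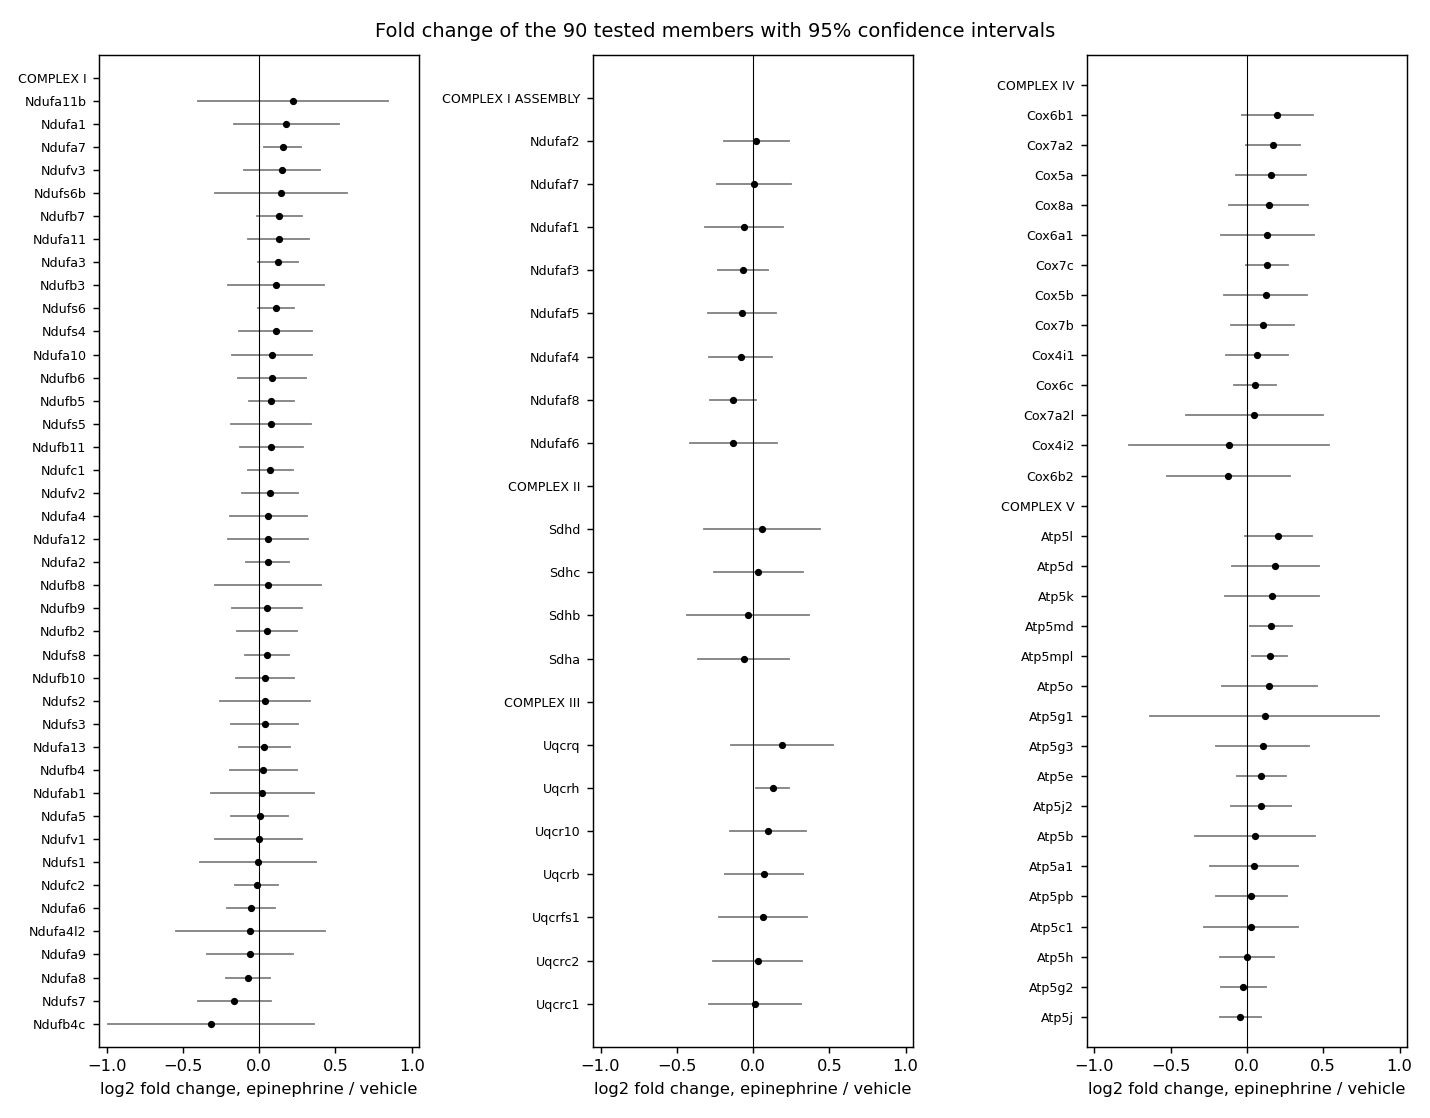
Log2 fold change of epinephrine over vehicle for each of the 90 tested genes, grouped by complex and ordered by size. Points are edgeR estimates and bars their 95% confidence intervals; most bars cross the line at 0, none reaches 1 in either direction, and the 10 subunits of complex IV other than its paralogs all lie to the right of 0, as 7 of them do with library-size scaling.

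In the vehicle libraries, most subunits stood above the assembly factors and tissue-specific paralogs in level per kilobase of gene model. The highest was Atp5b, the catalytic beta subunit of the ATP synthase, at 722 ± 151 CPM per kilobase (SD, n = 6). Cox4i1, the regulatory subunit of complex IV, followed at 609 ± 68.2 and Cox8a at 551 ± 83.98 CPM per kilobase. The 3 intervals of mean ± SD overlap, but the genes were measured in the same libraries, so that overlap does not settle their order. Per kilobase, Cox8a stood below both others in each vehicle library, while Atp5b and Cox4i1 changed places between libraries. The median gene of the 96 stood at 89.9 CPM per kilobase. Medians by complex were 72.6 for complex I, 119 for complex II, 119 for complex III, 84.00 for complex IV and 133 for complex V, against 11.4 for the complex I assembly factors. The 8 assembly factors, from 2.79 (Ndufaf5) to 20.2 (Ndufaf8), all stood below 40.2, the level of Ndufs1, the lowest core subunit of complex I. Some other subunits fell within the range of the assembly factors, among them Ndufa11 at 15.2 and Sdhd at 5.72. The value for Ndufa11 rests on a deposited length of 2661 bases, against 1092 exon bases in GENCODE vM21. Without division by length Ndufa11 stood at 40.5 CPM, above Ndufaf7, the highest assembly factor, at 24.0 CPM.

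**Figure D2:**
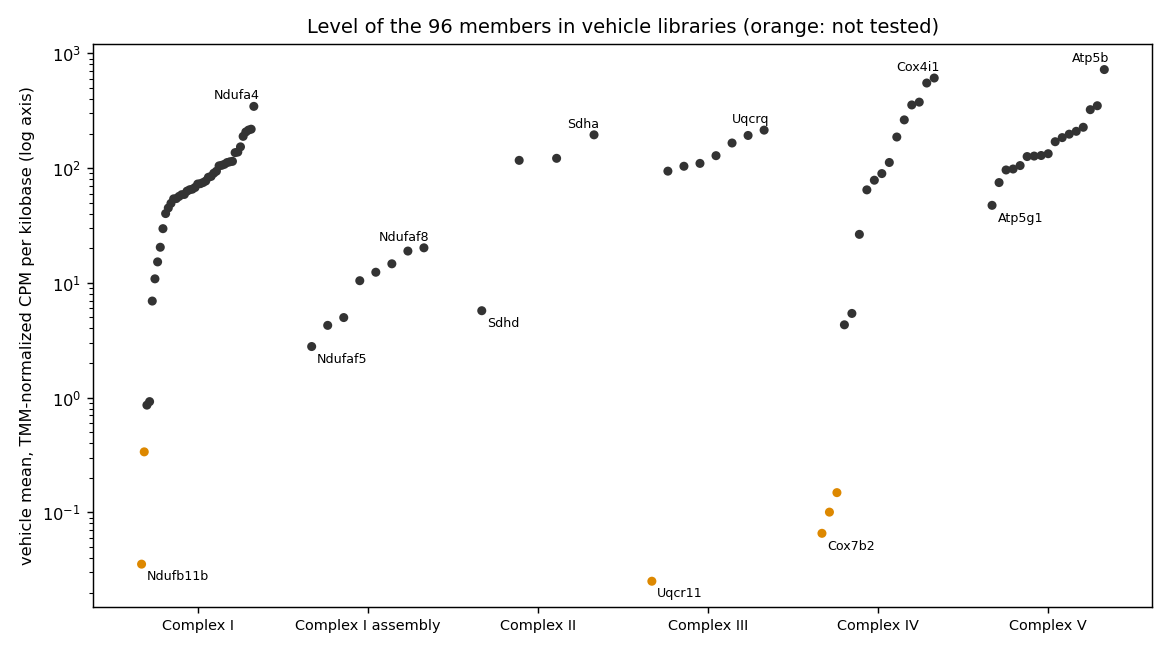
Mean vehicle level of each of the 96 genes in TMM-normalized CPM per kilobase, on a log axis, by complex and in ascending order. Each point is 1 gene, the highest and lowest of most complexes are named, and orange points are the 6 genes that did not pass the filter on low counts; Atp5b stands highest at 722 and Uqcr11 lowest at 0.0251.

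Complex I genes did not pass the test, 0 of 41 tested, and their summed level was 2834 ± 303 CPM in vehicle mice and 2941 ± 265 CPM after epinephrine (mean ± SD, n = 6 each). Of the 41, 32 had a fold change above 0 and 9 below, with a median of 0.056, and with library size alone 10 lay above and 31 below. The core subunits, which carry the flavin and the iron-sulfur clusters and bind NADH and ubiquinone, were nearly level: 4 were above 0 and 3 below (7 below with library size alone), from -0.16 for Ndufs7 to 0.07 for Ndufv2. Ndufs1, the largest of them, stood at 76.98, 118 and 147 CPM in vehicle mice (lowest, median and highest of 6) and 74.6, 124 and 139 CPM after epinephrine. Its ranges overlapped almost fully. Among the supernumerary subunits, which surround the core, 26 of 30 were above 0, and 8 of 30 with library size alone.

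Ndufa7, one of these, had the smallest p in complex I. Its levels were 87.4, 90.5 and 97.4 CPM in vehicle mice and 89.4, 105 and 107 CPM after epinephrine. Epinephrine 1, 3, 4 and 5 stood above every vehicle library, whereas epinephrine 2 and 6 fell inside the vehicle range. The log2 fold change was 0.15 (SE 0.0560, adjusted p = 0.157). Ndufs6, a zinc-binding subunit, stood at 36.9, 38.2 and 39.98 CPM in vehicle mice and 35.8, 42.5 and 43.4 CPM after epinephrine; epinephrine 1 was the lowest of all 12 libraries and the other 5 epinephrine libraries lay above the vehicle range. Its log2 fold change over all 12 libraries was 0.11 (SE 0.0549, adjusted p = 0.341). Ndufa3 had a log2 fold change of 0.12 (SE 0.0605, adjusted p = 0.341). The most abundant gene per kilobase among those grouped with complex I by symbol was Ndufa4, at 345 ± 53.8, although its protein has been assigned to complex IV. Its paralog Ndufa4l2, known for induction by low oxygen, was far lower at 10.8 ± 2.08 CPM per kilobase. Neither passed the test, with log2 fold changes of 0.061 (SE 0.116, adjusted p = 0.899) and -0.057 (SE 0.225, adjusted p = 0.955). Ndufb9 stood at 214 ± 26.2 and Ndufa3 at 218 ± 14.00 CPM per kilobase, the next after Ndufa4.

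The remaining complex I symbols are extra copies. Ndufb4c and Ndufa11b gave the 2 outermost fold changes, and they rested on the lowest levels of any tested gene in the complex: Ndufb4c stood at 0.419 ± 0.102 CPM in vehicle mice and 0.338 ± 0.163 CPM after epinephrine and Ndufa11b at 0.371 ± 0.123 CPM in vehicle mice and 0.433 ± 0.135 CPM after epinephrine. Ndufb4b and Ndufb11b, with at most 9 and 7 counts in any library, did not pass the filter. Counting can be uncertain where genes share bases. In GENCODE vM21, 65.6% of the exon bases of Ndufaf2 also lie in B230220B15Rik, 39.00% of those of Ndufb6 in Smim27 and some of those of Ndufa13 in Tssk6, each on the opposite strand. Whether the counts use strand is not given in the sources used here. Of the 50-base words in Ndufs5 transcripts, 21.7% also occur in another gene.

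The complex I assembly factors, chaperones and enzymes that build the complex and are not part of it, had a median below 0 with TMM scaling, unlike the 5 complexes taken whole. Their median log2 fold change was -0.069, with 2 above 0 and 6 below (with library size alone, 0 above and 8 below, as for complex II with 0 above and 4 below), and 0 of 8 passed the test. Their summed level was 112 ± 8.61 CPM in vehicle mice and 108 ± 6.75 CPM after epinephrine (mean ± SD, n = 6 each), and the ranges overlapped. Ndufaf8 stood at 9.41, 9.81 and 11.02 CPM in vehicle mice and 8.24, 9.26 and 9.46 CPM after epinephrine. The groups overlapped only narrowly, with vehicle 3 and 5 below the highest epinephrine value. Its log2 fold change was -0.13 (SE 0.0693, adjusted p = 0.393). By p, Ndufaf6 and Ndufaf3 came next, with log2 fold changes of -0.13 (SE 0.131, adjusted p = 0.741) and -0.067 (SE 0.0748, adjusted p = 0.781), again without passing. Other complex I assembly factors, outside the definition, had a median log2 fold change of 0.026 over the 11 tested. For assembly factors of complexes II, III, IV and V the medians were 0.040, -0.0023, 0.022 and -0.079, the last with the inhibitor included.

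Complex II, succinate dehydrogenase, is also an enzyme of the tricarboxylic acid cycle, and all of its subunits are nuclear. Its 4 genes showed no call in either direction and a median log2 fold change of 0.00206. Their sum was 834 ± 131 CPM in vehicle mice and 811 ± 135 CPM after epinephrine (mean ± SD, n = 6 each). Sdha, the flavoprotein, stood at 424, 558 and 657 CPM in vehicle mice and 385, 568 and 592 CPM after epinephrine, with a log2 fold change of -0.063 (SE 0.136, adjusted p = 0.916). Sdhb, the iron-sulfur subunit, stood at 84.4, 127 and 150.04 CPM in vehicle mice and 73.7, 136 and 145 CPM after epinephrine, with -0.031 (SE 0.182, adjusted p = 0.973). For the membrane anchors Sdhc and Sdhd, the log2 fold changes were 0.035 (SE 0.133, adjusted p = 0.952) and 0.06 (SE 0.175, adjusted p = 0.940). Within both genes' groups the libraries spread more widely than the group means differed. Sdhd was listed far below its partners, at 5.72 ± 1.11 CPM per kilobase against 195, 117 and 122 for Sdha, Sdhb and Sdhc, while the complex holds the 4 proteins in equal number. No exon base and no 50-base word of Sdhd is shared with another gene in GENCODE vM21.

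All 7 tested genes of complex III, the cytochrome bc1 complex, had fold changes above 0 with TMM scaling, with a median of 0.072 (2 of 7 with library size alone), and 0 of 7 passed the test. Their sum was 872 ± 125 CPM in vehicle mice and 917 ± 115 CPM after epinephrine (mean ± SD, n = 6 each). Uqcrh, the hinge protein that helps cytochrome c dock, had the narrowest spread of any of the 90 genes. Its levels were 99.96, 105 and 112 CPM in vehicle mice and 108, 114 and 121 CPM after epinephrine. Epinephrine 3, 4, 5 and 6 stood above every vehicle library, and epinephrine 1 and 2 inside the vehicle range. The log2 fold change was 0.13 (SE 0.0489, adjusted p = 0.179). Uqcrq, a small ubiquinone-binding subunit, stood at 83.5, 97.9 and 140.2 CPM in vehicle mice and 92.2, 131 and 137 CPM after epinephrine, a wider spread, with 0.19 (SE 0.153, adjusted p = 0.637). For Uqcr10 the log2 fold change was 0.10 (SE 0.113, adjusted p = 0.796). The core proteins Uqcrc1 and Uqcrc2 gave 0.015 and 0.03, nearest to 0. Per kilobase the highest were Uqcrq at 214 ± 47.9, Uqcrh at 193 ± 7.87 and Uqcr10 at 165 ± 23.03 CPM per kilobase. Uqcr11, a small subunit, was listed with only 3 counts over the 12 libraries and at most 1 in any, and its level cannot be read from this table. In GENCODE vM21 it shares no exon base with another gene, and 6.27% of its 50-base words occur in another gene, Gm16418.

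Complex IV, cytochrome c oxidase, had the highest median of the complexes, 0.12, with 11 of 13 tested genes above 0 and 0 passing the test. Its sum was 1645 ± 160.3 CPM in vehicle mice and 1779.8 ± 111 CPM after epinephrine (mean ± SD, n = 6 each). The 10 genes other than paralogs all lay above 0, from 0.054 for Cox6c to 0.20 for Cox6b1; with library size alone 7 of the 10 did. Cox6b1, on the side where cytochrome c docks, stood at 152, 178 and 216 CPM in vehicle mice and 169.8, 213 and 224 CPM after epinephrine. Its median in epinephrine libraries lay near the highest vehicle value, but the ranges overlapped, and the log2 fold change was 0.20 (SE 0.107, adjusted p = 0.394). Cox7a2 and Cox7c had the smallest p in the complex, with log2 fold changes of 0.17 (SE 0.0809, adjusted p = 0.314) and 0.13 (SE 0.0637, adjusted p = 0.320). Cox7c stood at 26.2, 28.5 and 32.6 CPM in vehicle mice and 30.6, 31.3 and 33.8 CPM after epinephrine, and 22.1% of its 50-base words occur in other genes. Cox4i1, Cox8a and Cox6a1, the most abundant per kilobase, gave 0.066, 0.14 and 0.13. Cox7b had 0.10 (SE 0.0940, adjusted p = 0.701).

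Paralogs of complex IV subunits known from muscle, testis, lung or low oxygen were at much lower levels than the common forms. Cox4i2, the form induced by low oxygen, stood at 4.31 ± 0.982 CPM per kilobase beside 609 for Cox4i1. Cox6b2, a testis form, stood at 5.41 ± 1.18 beside 355 for Cox6b1. Cox6a2, the form of heart and skeletal muscle, stood at 0.148 beside 376 for Cox6a1. Cox7b2 and Cox8c were at 0.0656 and 0.1004 beside 89.6 for Cox7b and 551 for Cox8a, all in CPM per kilobase. Cox6a2, Cox7b2 and Cox8c had at most 9, 5 and 13 counts in any library and were not tested. Cox4i2 and Cox6b2 were tested and gave -0.12 (SE 0.299, adjusted p = 0.932) and -0.12 (SE 0.185, adjusted p = 0.863). Cox7a2l, studied for its part in supercomplexes of complexes III and IV and carried by C57BL/6 mice as a shortened allele, was the exception in level, at 78.4 ± 21.7 CPM per kilobase against 26.5 for Cox7a2; its log2 fold change was 0.048 (SE 0.205, adjusted p = 0.960).

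Complex V, the ATP synthase, took the largest summed level, 3683 ± 559.6 CPM in vehicle mice and 3848 ± 548 CPM after epinephrine (mean ± SD, n = 6 each), with a median log2 fold change of 0.093, 14 of 17 genes above 0 (7 of 17 with library size alone) and 0 passing the test. The catalytic head was nearly level. Atp5b stood at 899, 1352 and 1683 CPM in vehicle mice and 909, 1486 and 1658 CPM after epinephrine, with a log2 fold change of 0.053 (SE 0.180, adjusted p = 0.947). For Atp5a1, the alpha subunit, it was 0.045 (SE 0.131, adjusted p = 0.940). The smallest p of all 90 genes belonged to Atp5mpl, the membrane proteolipid subunit. Its levels were 33.7, 35.4 and 38.9 CPM in vehicle mice and 37.7, 39.6 and 42.1 CPM after epinephrine. Vehicle 2 and 6 stood inside the range of the epinephrine libraries, and the other 4 vehicle libraries below it. The log2 fold change was 0.15 (SE 0.0528, adjusted p = 0.141). Atp5md, which helps hold the synthase in dimers, stood at 40.2, 42.9 and 49.3 CPM in vehicle mice and 44.6, 49.5 and 51.3 CPM after epinephrine, with vehicle 5 and 6 and epinephrine 2, 5 and 6 in the shared range and a log2 fold change of 0.16 (SE 0.0631, adjusted p = 0.207). Atp5l, subunit g, had 0.20 (SE 0.101, adjusted p = 0.335). Atp5e and Atp5j, named here because other tests called them, gave 0.093 (SE 0.0732, adjusted p = 0.627) and -0.043 (SE 0.0614, adjusted p = 0.848).

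Atp5g1, Atp5g2 and Atp5g3 encode the same mature c subunit, which forms the rotating ring, behind different import sequences. Atp5g3 was the main source, at 349.5 ± 57.2 CPM per kilobase, with Atp5g2 at 74.8 ± 5.15 and Atp5g1 at 47.4 ± 21.4, the lowest of complex V. Atp5g3 stood at 186, 225 and 293 CPM in vehicle mice and 179, 271 and 288 CPM after epinephrine, with a log2 fold change of 0.10 (SE 0.138, adjusted p = 0.838). Atp5g2, of whose 50-base words 38.3% occur in other genes, had -0.025 (SE 0.0680, adjusted p = 0.936). For Atp5g1 the levels were 28.1, 33.9 and 76.7 CPM in vehicle mice and 23.3, 36.4 and 80.4 CPM after epinephrine, with 0.12 (SE 0.343, adjusted p = 0.941). It had the largest standard error of the 90 genes. The high libraries were vehicle 2, epinephrine 1 and epinephrine 2.

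**Figure D3:**
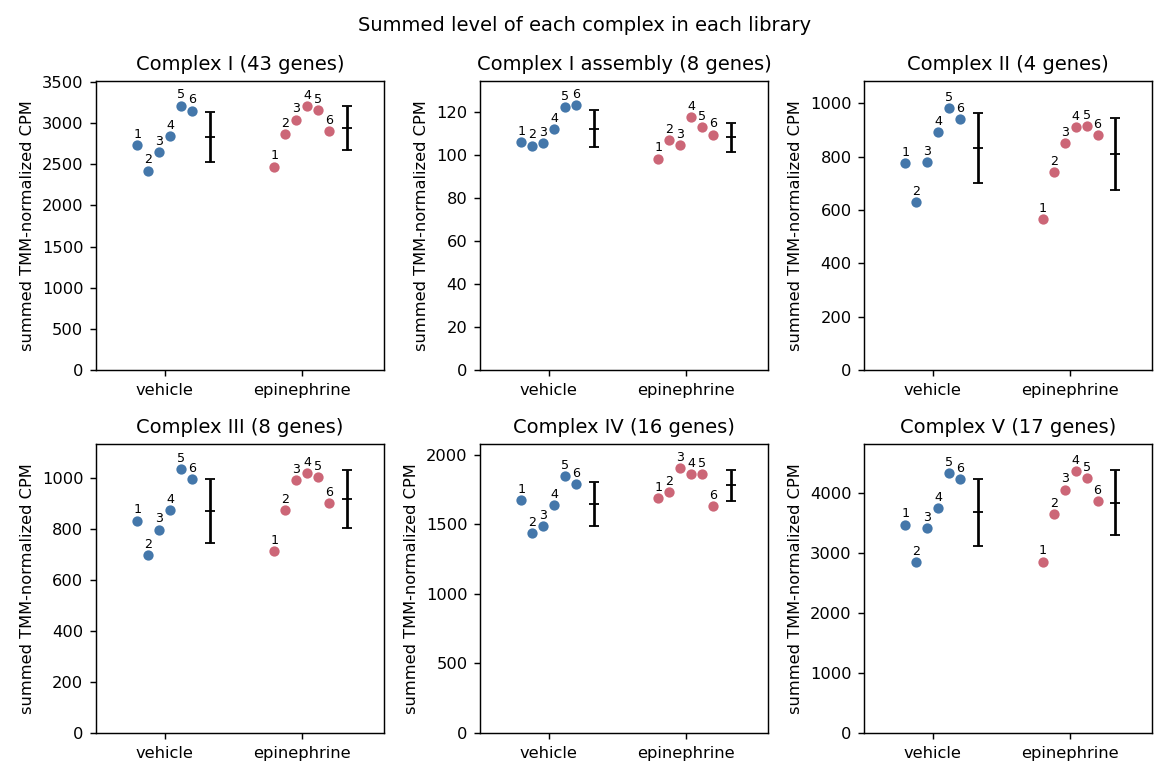
Summed TMM-normalized CPM of the genes of each complex in each library, with vehicle in blue and epinephrine in red. Points are libraries numbered by replicate, and the black marks show the group mean with its SD (n = 6); in every panel the groups overlap, and vehicle 2 and epinephrine 1 lie low in complexes I, II, III and V.

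Other tests called up to 4 genes higher. DESeq2 called 3 of 93, Atp5mpl, Ndufa7 and Uqcrh, and 8.66% of all genes. Limma-voom with sample weights called those 3 and Ndufs6, and 15.6% of all genes. Limma on the deposited variance-stabilized values called 0, and 4.37% of all genes. Blocking on replicate number left 0 of 90 called in edgeR and 4.64% of all genes. Without epinephrine 1, edgeR called 1, Ndufs6 (log2 fold change 0.15, adjusted p = 0.0456), and 8.07% of all genes. Without the 3 Gpx5-rich libraries it called 3, Ndufs6, Atp5e and Uqcrh, at log2 fold changes of 0.17, 0.18 and 0.18, and 11.2% of all genes. With library-size scaling, 1 was called lower, Atp5j (log2 fold change -0.15, adjusted p = 0.0426), and again 11.2% of all genes. In each of these the called share of the 90 to 95 respiratory chain genes tested was below that of all genes.

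Only with listed age as a covariate did many calls appear: 3 higher and 15 lower of 90, while 23.9% of all genes were called (2339 higher and 1528 lower). The called share of the 90, both directions together, was again below that of all genes. The 3 higher were Atp5g1, Cox7a2l and Ndufa1, and among the 15 lower were Sdha, Sdhb, Sdhc, Ndufs1, Ndufs7, Ndufv1 and Uqcrfs1. Their fold changes in that fit were 1.78 for Atp5g1 and -0.92 for Sdhb on the log2 scale. No age is shared, so that fit extends the trend within groups across the gap between them. Listed age rises with replicate number within each group. The 3 vehicle mice of the lower listed ages had adipocyte shares of 1.63% to 3.78% and the 3 older ones 4.39% to 4.81%. After epinephrine these were 2.02% to 4.07% and 4.15% to 4.31%. The epididymis shares were 0.445% to 4.05% and 0.000884% to 0.106% in vehicle mice, and 0.343% to 2.95% and 0.00219% to 0.0209% after epinephrine. The part of these shares in that fit was not tested.

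The level of these genes varied between mice by more than the median difference between treatments, 0.058 on the log2 scale. Their median log2 level, relative to the vehicle mean, was lowest in vehicle 2 (-0.21) and epinephrine 1 (-0.21) and highest in epinephrine 4 (0.20) and vehicle 5 (0.19). Vehicle 2 and epinephrine 1 also had the lowest adipocyte share, 1.63% and 2.02% of counts, and the highest epididymis share, 4.05% and 2.95%; epinephrine 2 came next on both. The part of tissue makeup in the genes' levels was not tested. In the 3 Gpx5-rich libraries, 70 of the 90 genes were lower than in the other 9 (77.8%, against 52.5% of all genes), with a median ratio of 0.877 against 0.980. All 4 genes of complex II were lower, at a median ratio of 0.752. Sdhb, at 0.647, and Ndufs1, at 0.671, were among the lowest. Complex IV stood nearest to 1 at 0.939, with 9 of 13 lower.

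Some genes went the other way in those 3 libraries. Atp5g1 had 76.7, 80.4 and 60.6 CPM in vehicle 2, epinephrine 1 and epinephrine 2, against 23.3 to 45.3 CPM in the other 9, a ratio of 2.21. Cox7a2l followed with a ratio of 1.56 and Ndufa1, a small membrane subunit of complex I, with 1.45. These are the 3 genes called higher with listed age as a covariate. Atp5mpl, Ndufa7, Uqcrh and Atp5md, the genes with the smallest p, kept ratios between 0.978 and 1.06. The 90 genes as a whole spread less within groups than other genes did, with a median within-group SD of log2 CPM of 0.195 against 0.307 for all genes tested. At matched level the gap was smaller: among genes with a vehicle mean from 31.8 to 122 CPM it was 0.165 for 44 of them against 0.192 for all 4658 genes.

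**Figure D4:**
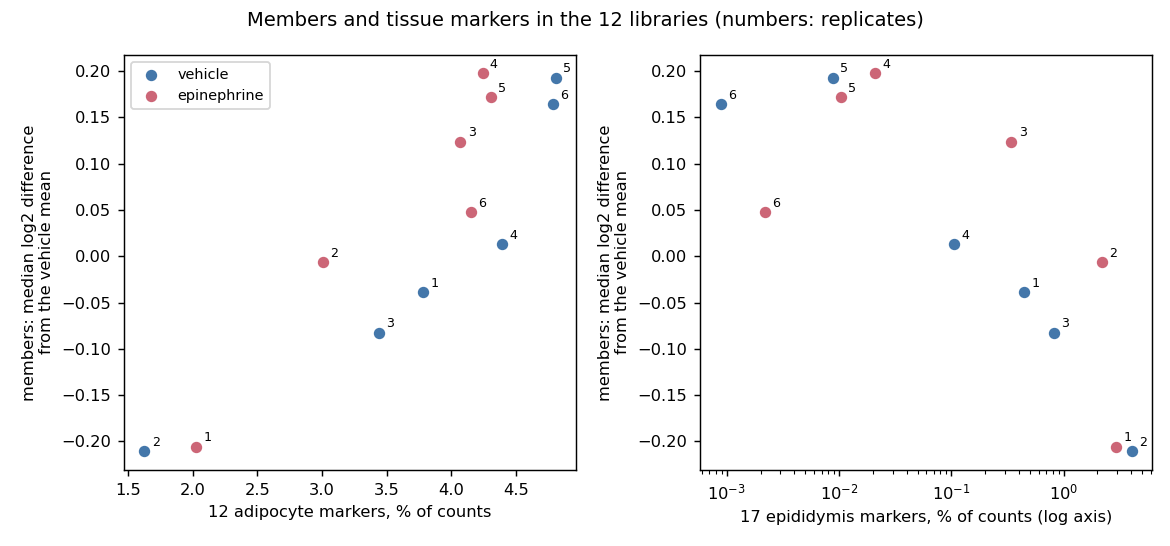
Median log2 difference of the 90 tested genes from the vehicle mean in each library, against the share of counts from 12 adipocyte markers (left) and 17 epididymis markers (right, log axis). Vehicle libraries are blue and epinephrine libraries red, numbered by replicate; vehicle 2 and epinephrine 1 lie lowest, at the left of the adipocyte axis and the right of the epididymis axis.

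**Figure D5:**
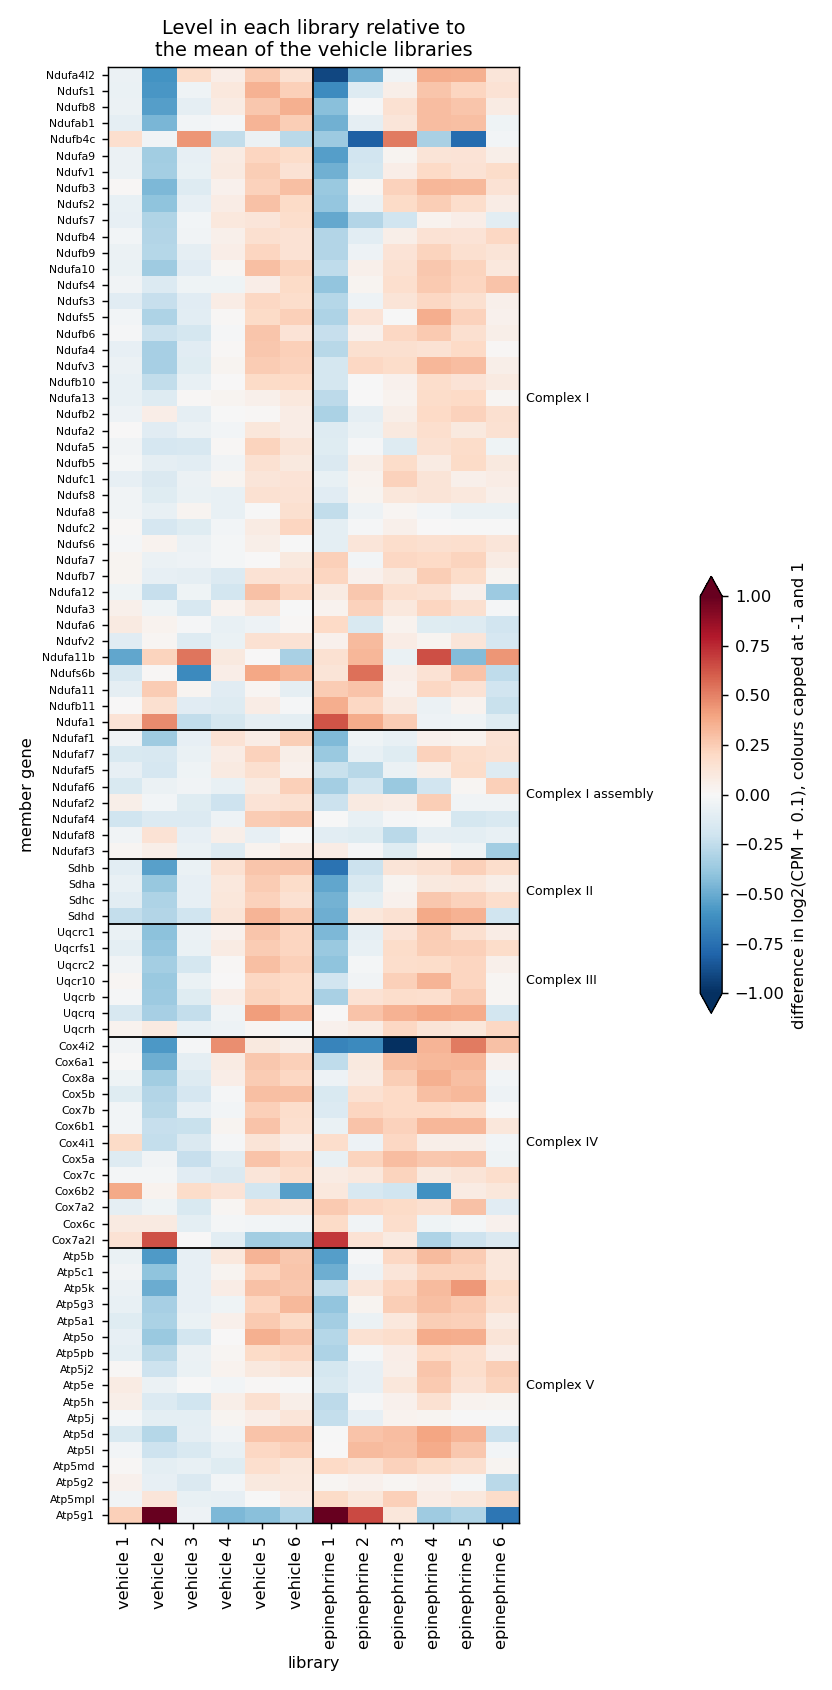
Level of each of the 90 tested genes (lines) in each of the 12 libraries (columns), as the difference in log2(CPM + 0.1) from the mean of the vehicle libraries. Within each complex, genes are ordered by their ratio in the 3 Gpx5-rich libraries to the other 9; colours are capped at -1 and 1, vehicle 2 and epinephrine 1 are blue for most genes, and Atp5g1, Cox7a2l and Ndufa1 are red there.

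Genes of the wider pathway around the nuclear subunits were read in the same test (edgeR, adjusted over all genes, 6.23% of which were called). Those called were Cycs, Tmem186, Sco1, Tfam and Polrmt. Of the 13 subunits encoded by the mitochondrial genome, 0 were called, and their sum was 23806 to 40285 CPM in vehicle mice and 30053 to 35779 CPM after epinephrine. ND3, ND4L, COX2, COX3, ATP6 and ATP8 were listed very low, with vehicle means from 2.46 (ND4L) to 15.8 CPM (ATP6). The others ran from 1523 (ND6) to 10522 CPM (COX1), so the sum comes almost wholly from them. The cause of the low listed levels was not tested. None of the 13 enzymes of the tricarboxylic acid cycle was called either, nor any of the 4 assembly factors of complex II, the 6 of complex III or the 5 tested for complex V with its inhibitor. Among 6 tested electron carriers and subunits outside the definition, 1 was called higher. This was Cycs, cytochrome c, the soluble carrier between complexes III and IV. It stood at 21.9 to 31.3 CPM in vehicle mice and 30.1 to 37.6 CPM after epinephrine, a log2 fold change of 0.40 (SE 0.0949, adjusted p = 0.0286). Cycs passed in 15 of 26 alternatives. With listed age as a covariate its log2 fold change was 0.21 (adjusted p = 0.386). The call was also lost with no count filter (adjusted p = 0.0537), with the replicate block (adjusted p = 0.0911), in replicate numbers 1 to 3 or 4 to 6 alone (0.346 and 0.211), and without each of vehicle 1 and 3 and epinephrine 2 to 5 (adjusted p from 0.057 to 0.0738). Cyc1, the membrane-bound cytochrome c1, did not pass, at 0.046 (SE 0.150, adjusted p = 0.945). For Cox7a1 and Cox8b, the muscle and brown fat forms left out of the definition, the log2 fold changes were 0.40 (SE 0.177, adjusted p = 0.272) and -0.00359.

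Assembly factors outside the definition gave 1 lower call of 11 for complex I and 1 of 21 for complex IV. Tmem186, a complex I assembly factor, fell from 23.6 to 29.1 CPM in vehicle mice to 18.6 to 22.1 CPM after epinephrine, without overlap, a log2 fold change of -0.33 (SE 0.0688, adjusted p = 0.0139). It passed in 25 of 26 alternatives, all but the fit of replicate numbers 1 to 3 alone. Sco1, a copper chaperone of complex IV, stood at 8.72 to 9.69 CPM and 6.81 to 8.45 CPM, also without overlap, with -0.29 (SE 0.0750, adjusted p = 0.0389). Sco1 passed in only 8 of 26 alternatives. The call was lost with RLE scaling (adjusted p = 0.0567), with no count filter and in limma on the deposited values (0.066 in each), with listed age (0.0589), in replicate numbers 1 to 3 or 4 to 6 alone (0.569 and 0.242), with the replicate block (adjusted p = 0.118), without the 3 Gpx5-rich libraries (0.0858) and without any 1 of the libraries other than epinephrine 1 and 6 (0.0688 to 0.0949).

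Of 17 tested regulators of respiratory chain transcription, 2 fell and 0 rose. Both act in the mitochondrion on its own genome. Tfam, which packs mitochondrial DNA and starts its transcription, had 26.9 to 28.6 CPM in vehicle mice and 21.4 to 24.6 CPM after epinephrine, a log2 fold change of -0.28 (SE 0.0497, adjusted p = 0.00579). Polrmt, the mitochondrial RNA polymerase, had 28.7 to 34.5 CPM and 23.5 to 26.8 CPM, with -0.28 (SE 0.0588, adjusted p = 0.0158). In neither did the groups overlap. Tfam passed in 23 of 26 alternatives, and Polrmt in 22. The Polrmt call was lost with the replicate block (adjusted p = 0.0754) and without vehicle 4 (0.056). Both calls were lost with listed age as a covariate (0.089 for Tfam and 0.0743 for Polrmt). They were also lost in replicate numbers 1 to 3 alone (0.521 for Tfam and 0.707 for Polrmt). In numbers 4 to 6 alone the Tfam call was lost (0.072). Ppargc1a did not pass: its levels were 5.72 to 11.1 CPM in vehicle mice and 6.99 to 23.9 CPM after epinephrine, with a log2 fold change of 0.59 (SE 0.288, adjusted p = 0.329). For the factors whose motifs were searched, the log2 fold changes were -0.11 for Nrf1, -0.20 for Gabpa, -0.048 for Yy1 and -0.03 for Esrra, none past the threshold.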

How the data were processed

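RNA sequencing was available for 12 libraries, grouped and numbered by their titles. The authors deposited a table of raw integer counts, without normalization. They also deposited variance-stabilized values on a log2-like scale, used here only as an alternative. Per the submitters' processing notes, FastQC, cutadapt, HISAT2, featureCounts and DESeq2 were used with build mm10, without versions. Annotation, strand setting and handling of reads with several matches were not given in the sources used here. Genes without a symbol, 0.253% to 0.315% of counts, stayed in the fit.

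Genes were filtered with filterByExpr (minimum count 10, minimum total 15), scaled by TMM and tested with the quasi-likelihood F test of edgeR 4.0.16 (limma 3.58.1, R 4.3.3), with Benjamini-Hochberg adjustment over 16175 genes and calls at 0.05. SE is the log2 fold change divided by the square root of F. The mice are separate animals, so the test weighs the difference between groups against the spread between animals. Because no listed age is shared by both groups, its p-values cannot tell epinephrine apart from age as listed. With the deposited gene lengths, CPM per kilobase was computed to compare genes. The script was tested on simulated data. Alternatives tried were scaling by RLE, upper quartile or library size, other count filters, DESeq2 1.42.0, limma-voom, limma on the deposited values, covariates, the replicate block, and leaving out libraries.

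The members, the gene lists and the alternatives were chosen with earlier results of these data known. The text names each complex's 3 smallest p, 3 highest levels and lowest level, the paralogs, the untested members, and other genes past the threshold. The remaining members it describes and the roles were chosen after their values were seen. Same-numbered libraries deviated together in all 6 pairs (correlations across genes 0.262 to 0.799), the criterion being 0.1. Only 3 of the 12 libraries correlated best with their own number, so these correlations do not show that numbers pair the samples. The main test took the samples as unpaired, and numbers were used as pairs only in the replicate block. Exon sharing was read from GENCODE vM21 (GRCm38), the build the notes name as mm10.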

Additional observations from a re-analysis of the deposited data

Results flagged for a closer look

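Values that stood apart from the other 5 libraries of their group by Dixon's test (95% level) were found in 8 of 110 groups examined, and chance gives about 1 in 20. All values are TMM-normalized CPM. Atp5g1 was 76.7 CPM in vehicle 2 against 28.1 to 45.3 in the others, and Ndufa11 was 48.2 CPM there against 37.2 to 41.1. Cox7a2l was 143 CPM in epinephrine 1 against 70.8 to 96.8, and Ndufs6 was 35.8 CPM there against 41.7 to 43.4. These 2 libraries had the highest epididymis marker shares, 4.05% and 2.95% of counts, and the part of that tissue in the values was not tested. In epinephrine 6, 3 members were low: Atp5g2 at 40.05 CPM against 47.7 to 49.9, Atp5md at 44.6 against 48.8 to 51.3, and Cox7a2 at 18.4 against 22.3 to 24.4. Ndufaf8 was 8.24 CPM in epinephrine 3 against 9.15 to 9.46.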

How the results depend on the processing

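The count of 0 members called stayed at 0 in both directions with RLE and upper-quartile scaling, both other filters, the epididymal score as a covariate and limma on the deposited values. It was also 0 in replicate numbers 4 to 6 alone, where 8.39% of all genes were called, and in numbers 1 to 3 alone, where 0% were, so that the latter says nothing about the members. The replicate block changed no call among the members, with 0 higher and 0 lower. Called higher were 3 members in DESeq2, 4 in limma-voom, 3 without the 3 Gpx5-rich libraries and 3 with listed age as a covariate. Leaving out 1 library at a time gave 0 to 1 called higher, the 1 being Ndufs6 without epinephrine 1, and 0 called lower. Called lower were 1 with library-size scaling and 15 with listed age. Listed age moved the median log2 fold change to -0.27 for complex I, -0.35 for its assembly factors, -0.64 for complex II, -0.35 for complex III, -0.11 for complex IV, -0.28 for complex V and -0.28 for all members. Of the genes above 0 without it, it turned these to called lower: Sdhc at -0.61 (adjusted p = 0.0291), Uqcrfs1 at -0.56 (adjusted p = 0.0388), Ndufaf7 at -0.52, Ndufb4 at -0.45, Atp5pb at -0.45, Ndufs3 at -0.42 and Ndufb10 at -0.36. The median of complex IV was 0.24 in replicate numbers 1 to 3, and that of all members -0.048 with library-size scaling. The cause was not tested. Of the 236 counts and medians recomputed, 16 moved, for a median by more than its SD over libraries. That allows a change of sign: with library-size scaling the median was -0.050 for complex I, -0.11 for complex II, -0.033 for complex III and -0.017 for complex V, each above 0 with TMM. The median of all genes was -0.11 with that scaling. Precision is limited by 6 mice per group and by levels: the 6 untested genes had at most 13 counts in any library. The libraries with most epididymis RNA lie at low replicate numbers in both groups, and listed age follows number and group. The choice by symbol leaves out the subunits made in the mitochondrion.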
